A study of Homo sapiens with 2 samples.

Results

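The CADM proteins, the nectins, NCAM1 and L1CAM are cell adhesion molecules of the immunoglobulin superfamily, and 10 of their genes (CADM1, CADM2, CADM3, CADM4, NECTIN1, NECTIN2, NECTIN3, NECTIN4, NCAM1 and L1CAM) were followed between substates of a human embryonic stem cell line. A probe was assigned to a gene when it was not a control spot and its RefSeq transcript accession mapped to that gene, which gave 17 probes to the 10 genes, out of 22435 genes named on the array in this way. Of the 58201 probes on the array, 53.4% were named; probes that carry another kind of accession were not tied to a gene, so further probes to these 10 genes may exist on the array and were not analysed here.

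CADM proteins hold cells together without calcium by binding to themselves or to other CADM proteins on the facing cell, and their cytoplasmic tails dock protein 4.1 and membrane-associated guanylate kinases such as CASK. Nectins also work without calcium, pair with each other or with other nectins across the cell junction, and are linked by afadin to the actin cytoskeleton and to cadherin junctions. NCAM1 and L1CAM bind themselves and other partners on neurons and neural progenitors, where they take part in neurite outgrowth, and polysialic acid carried by NCAM1 weakens its adhesion. In human embryonic stem cells grown as epithelial colonies, nectins lie at the cell borders, and NCAM1 is used as a marker that appears as cells leave the pluripotent state towards neural or mesodermal fates.

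The data were single-colour Agilent expression arrays of H9, a line of human embryonic stem cells that was grown feeder-free in TeSR-E8 medium on Matrigel. Substate 1 was defined in the study as typical colonies with strong R-10G epitope, a keratan sulphate epitope of pluripotent cells, and no vimentin, and substate 2 as vimentin-positive colonies with weaker R-10G and wide spaces between cells. Substate 1 was hybridised to 1 array, from cells of passage 35, and substate 2 to 1 array, from cells of passage 50, so passage cannot be told apart from substate. The study's methods report a move from vitronectin to Matrigel at passage 35. The time spent on Matrigel may thus differ with passage, and it cannot be told apart from substate either. The arrays shared a slide and a scan but not a position on the slide. With 1 array per substate no difference below has a replicate check, no test between the substates was possible, and no p-value is given. RNA was measured in bulk and how the cells of a substate were collected is not given in the sources used here, so fewer cells of a type and less RNA per cell cannot be told apart.

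On the substate 1 array 57.4% of the spots, and on the substate 2 array 54.7%, lay well above background by the flag of the scanner software, and 0 non-control spots were saturated. Of the 17 member probes, 12 probes of 9 genes lay well above background on both arrays, 1 probe did so on the substate 1 array alone and 4 probes on neither, and each was printed once, with 0 marked as outliers. The share on both arrays was 70.6% for the member probes and 68.5% for all named probes. Signals are given as the processed intensity of the scanner software with the error of its own error model. Differences are given as the log2 of that intensity minus the 75th percentile of the array, substate 2 minus substate 1, with the error carried over from the signals. That error describes spots and scanning, not cells or RNA preparations. The 75th percentile itself was 314 in substate 1 and 275 in substate 2, so equal intensities on the arrays stand for a slightly higher normalised level in substate 2.

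The sequences below show the 250 bases before the transcription start of 4 members, as listed by RefSeq for GRCh38.p14, because they belong to members with different results: NECTIN2 had a lower signal in substate 2 by both probes, NECTIN3 had a probe with a difference near that of all probes, and CADM4 and NECTIN4 hold the motif searched. Capitals mark CACCTG or CAGGTG, the same E-box read on both strands, to which ZEB and SNAI repressors of epithelial genes are known to bind.
NECTIN2, chr19:44846047-44846296, plus strand: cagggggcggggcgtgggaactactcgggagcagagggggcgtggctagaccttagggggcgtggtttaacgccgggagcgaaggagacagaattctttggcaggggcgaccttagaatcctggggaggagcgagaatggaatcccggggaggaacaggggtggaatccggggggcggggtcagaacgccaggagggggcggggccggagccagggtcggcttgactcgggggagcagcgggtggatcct
NECTIN3, chr3:111071566-111071815, plus strand: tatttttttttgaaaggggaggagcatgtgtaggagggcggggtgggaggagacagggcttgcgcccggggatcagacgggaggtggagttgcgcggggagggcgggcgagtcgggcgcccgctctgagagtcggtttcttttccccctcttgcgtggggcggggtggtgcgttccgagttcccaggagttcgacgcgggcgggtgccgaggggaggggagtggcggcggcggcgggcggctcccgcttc
CADM4, chr19:43639851-43640100, minus strand: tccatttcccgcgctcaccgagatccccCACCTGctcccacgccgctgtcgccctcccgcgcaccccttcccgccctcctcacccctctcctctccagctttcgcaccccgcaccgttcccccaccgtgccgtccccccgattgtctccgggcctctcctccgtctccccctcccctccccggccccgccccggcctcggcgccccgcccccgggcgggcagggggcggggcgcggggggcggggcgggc
NECTIN4, chr1:161089559-161089808, minus strand: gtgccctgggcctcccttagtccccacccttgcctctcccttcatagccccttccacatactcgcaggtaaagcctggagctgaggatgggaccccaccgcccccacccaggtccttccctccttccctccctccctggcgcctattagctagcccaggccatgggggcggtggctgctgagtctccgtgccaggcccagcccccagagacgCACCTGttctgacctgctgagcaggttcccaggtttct
Promoter sequences were listed for 6 of the 10 members. The motif was found in the windows of CADM4, with its first match 222 bases before the start, and NECTIN4, 38 bases before it, and not in those of NECTIN2, NECTIN3, CADM3 or L1CAM. Of the 35116 promoters in the RefSeq table, 17.5% held the motif in the same window. The windows were rich in G and C, at 79.2% for CADM4, 69.2% for NECTIN3, 67.6% for NECTIN2 and 65.2% for NECTIN4, beside a median of 58% over all promoters. A match describes letters in a window and is not evidence of binding.

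Among the CADM genes, CADM1 and CADM2 gave lower signals in substate 2 by both RefSeq-named probes of each, whereas CADM3 and CADM4 differed by less than the scanner error. Probes without such a name were not included and may differ in direction, so these values do not settle the direction of a gene as a whole. CADM1, which is on chromosome 11 and is the best studied member, an epithelial and synaptic adhesion molecule, had a pair of probes. The probe to NM_001301043 read 1863 ± 186 in substate 1 and 1346 ± 135 in substate 2, a difference of -0.28 ± 0.20 that equals a 1.22-fold lower signal. The probe to NM_001098517 read 130 ± 13.4 in substate 1 and 86.0 ± 9.15 in substate 2, a difference of -0.41 ± 0.21 and 1.33-fold lower. Both probes had the lower value in substate 2, and neither difference exceeded 2 scanner errors. Their mean gave CADM1 a gene difference of -0.35, and 12.1% of the 15999 genes measured on both arrays were at least as low.

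CADM2, on chromosome 3, is a CADM protein of the nervous system. One of its probes to NM_001167674 read 223 ± 22.6 in substate 1 and 143 ± 14.8 in substate 2, with a difference of -0.45 ± 0.21 and a 1.37-fold lower signal. The other probe to the same transcript read 123 ± 12.7 and 68.2 ± 7.71, with a difference of -0.66 ± 0.22, which was 1.58-fold lower and the lowest of all measured member probes. Both exceeded 2 scanner errors and pointed the same way, although they report on a single RNA preparation for each substate. The gene difference of CADM2 was -0.56, and 5.56% of the measured genes were at least as low.

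CADM3, on chromosome 1, is expressed mainly in neural tissue and binds CADM1 on the facing cell. Its probe read 82.7 ± 8.99 in substate 1 and 73.4 ± 8.28 in substate 2, and after normalisation the difference was 0.02 ± 0.23. CADM4, on chromosome 19, joins Schwann cells to axons and is also found in epithelia. Its probe read 51.5 ± 6.16 in substate 1 and 41.7 ± 5.49 in substate 2, a difference of -0.12 ± 0.26. The intervals of 2 scanner errors ran from -0.44 to 0.47 for CADM3 and from -0.63 to 0.40 for CADM4, so a shift of the size seen for CADM1 could not be told from none at this precision. With normexp background correction the CADM4 difference changed sign to 0.07.

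**Figure D1:**
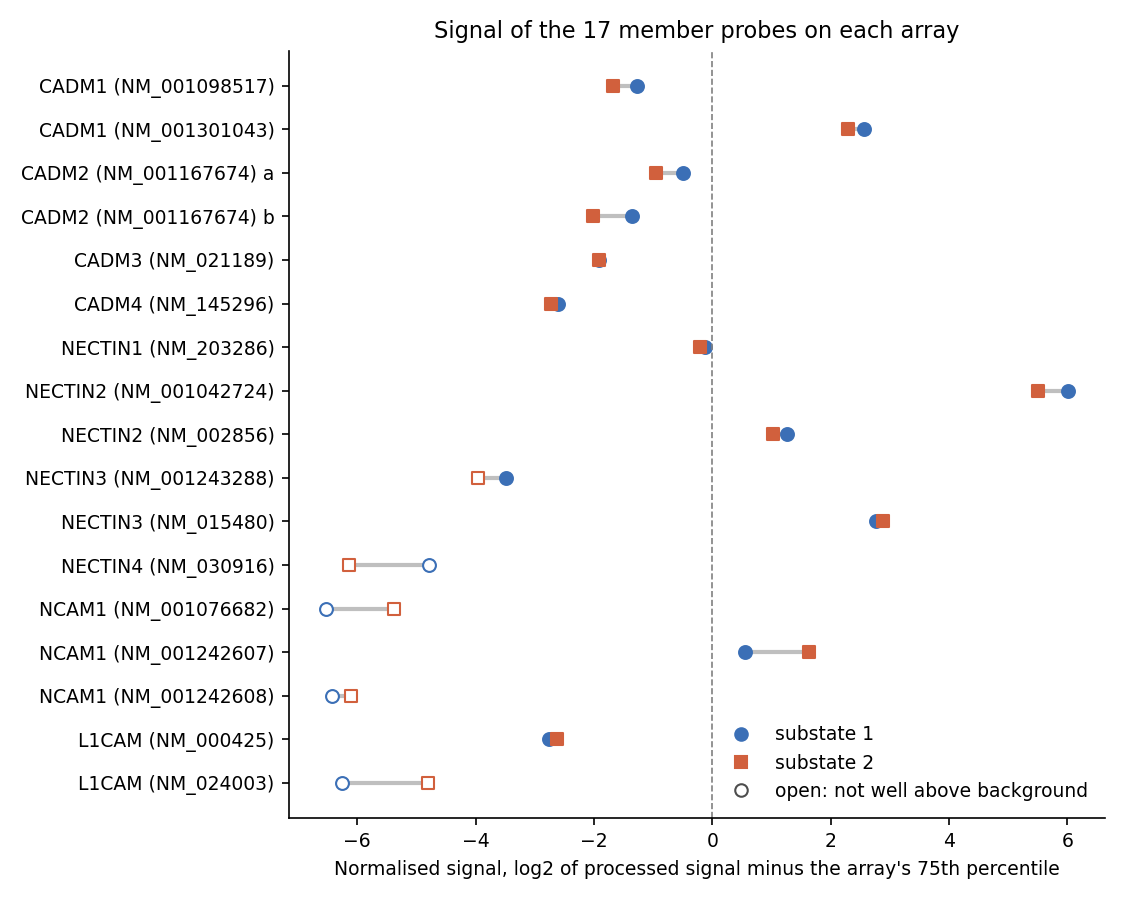
Normalised signal of each of the 17 member probes (x axis, log2 of the processed signal minus the 75th percentile of the array) on the substate 1 array (circles) and the substate 2 array (squares), with open symbols where the probe was not well above background. Levels of different probes are not comparable; within a row, NCAM1 (NM_001242607) shows the square to the right by 1.08, and both CADM1, both CADM2 and both NECTIN2 probes show it to the left.

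NECTIN2 gave a lower signal in substate 2 by both of its probes, whereas NECTIN1 and the NECTIN3 probe to NM_015480 differed by less than the scanner error and NECTIN4 was not well above background. NECTIN2, on chromosome 19, is an epithelial nectin and a ligand of the natural killer cell receptor CD226. Its probe to NM_001042724 read 20158 ± 2016 in substate 1 and 12439 ± 1244 in substate 2, a difference of -0.51 ± 0.20 and a 1.42-fold lower signal. That difference exceeded 2 scanner errors, and 8.40% of all measured probes were at least as low. The other NECTIN2 probe, to NM_002856, read 750 ± 75.1 in substate 1 and 559 ± 56.0 in substate 2, a difference of -0.24 ± 0.20. Both probes pointed the same way, with a gene difference of -0.37, and 10.9% of the measured genes were at least as low.

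NECTIN1, on chromosome 11, is the partner of NECTIN3 at heterotypic junctions and an entry receptor for herpes simplex virus. Its probe read 287 ± 28.9 in substate 1 and 240 ± 24.2 in substate 2, and the difference was -0.07 ± 0.21. NECTIN3, on chromosome 3, binds NECTIN1 and NECTIN2 more strongly than they bind themselves. The NECTIN3 probe to NM_015480 read 2130 ± 213 in substate 1 and 2024 ± 202 in substate 2, and the difference was 0.11 ± 0.20, close to the median of 0.06 over the 29883 probes measured on both arrays. The interval of 2 scanner errors was -0.48 to 0.34 for NECTIN1 and -0.29 to 0.52 for NECTIN3.

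The remaining nectin probes were dim. The NECTIN3 probe to NM_001243288 read 28.1 ± 4.48 in substate 1, where it was well above background, and 17.7 ± 4.01 in substate 2, where it was not. Its difference was -0.48 ± 0.40, or 1.39-fold lower, and its interval of 2 scanner errors, from -1.28 to 0.32, included 0. Its direction thus differed from that of the NECTIN3 probe to NM_015480, which had the higher normalised value in substate 2, and the probes address different transcripts. NECTIN4, on chromosome 1, is a nectin of placenta and of epithelial tumours. Its probe read 11.4 ± 3.79 in substate 1 and 3.90 ± 3.93 in substate 2, not well above background on either array, so no fold is given. Its Z-score, which expresses the difference against the mean and SD of all 58201 probes whether measured or not, was -2.25, past the limit of 2 in size, in a probe whose error in substate 2 was as large as its signal.

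**Figure D2:**
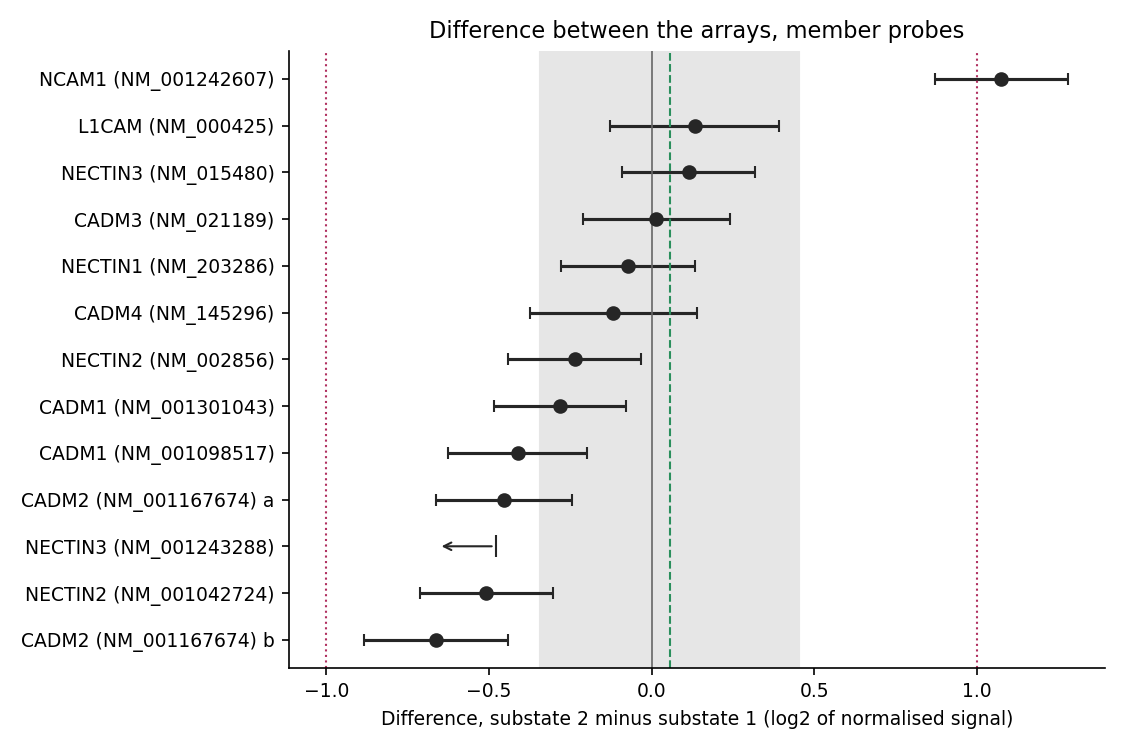
Difference between the arrays (x axis, log2, substate 2 minus substate 1) for the 12 member probes measured on both arrays (points, with bars of 1 scanner error). The arrow starts at the value of the NECTIN3 probe measured in substate 1 alone, which equals its plain difference of -0.48 ± 0.40. That value is no minimum, and the arrow carries no error bar. The green dashed line is the median of all measured probes at 0.06, the grey band is 1 SD of 0.40 around it, and the dotted lines mark 2-fold; the NCAM1 point, at 1.08, is the one beyond a dotted line.

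NCAM1 was the member with a higher signal in substate 2. The gene lies on chromosome 11 and encodes the neural cell adhesion molecule CD56. Its probe to NM_001242607 read 463 ± 46.4 in substate 1 and 856 ± 85.7 in substate 2, a difference of 1.08 ± 0.20, which equals a 2.11-fold higher signal. The interval of 2 scanner errors ran from 0.67 to 1.48, and 0.639% of all measured probes were at least as high. The Z-score of this probe was 1.58 and thus within the limit of 2, since the SD over all probes includes those near background and places the upper limit at 2.53-fold. Among all member probes, NCAM1 had the largest difference in units of the scanner error, 5.26.

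The other NCAM1 probes gave no measurement. The probe to NM_001076682 read 3.41 ± 3.42 in substate 1 and 6.59 ± 3.77 in substate 2, and the probe to NM_001242608 read 3.64 ± 3.65 and 4.0 ± 4.01, all not well above background. The higher NCAM1 signal therefore rests on 1 probe and 1 spot on each array. It stood at 1.03 or more under every scaling tried on the processed signals and at 0.95 with normexp background correction, which is under 2-fold; averaged with the 2 unmeasured probes it was 0.85.

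L1CAM, on the X chromosome, is an axonal adhesion molecule that signals through ankyrin and integrins. Its probe to NM_000425 read 46.3 ± 5.80 in substate 1 and 44.6 ± 5.81 in substate 2, and the difference was 0.13 ± 0.26, with an interval of 2 scanner errors from -0.39 to 0.65. A second probe, to NM_024003, read 4.10 ± 3.70 in substate 1 and 9.87 ± 4.21 in substate 2, not well above background on either array. This dim probe had a Z-score of 2.19, the highest of the member probes, whereas the measured L1CAM probe had a Z-score of 0.09, and the mean of both probes was 0.79. Of the members known mainly from neural tissue, NCAM1 was thus higher in substate 2, CADM2 was lower, and CADM3 and L1CAM differed by less than the scanner error.

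Across the 12 measured member probes, 8 had a difference below 0 and 4 above it, and differences below 0 made up 44% of all measured probes. The median difference was -0.18 for the member probes and 0.06 for all measured probes, and 9 of the 12 lay below that overall median. Taken by gene, 5 of the 9 measured members were below 0, with a median of -0.07, where 40.2% of all measured genes were below 0 and their median was 0.08. Of the 13 member probes that either array placed well above background, 1 was 2-fold or more higher in substate 2, a size reached by 1.55% of such probes, and 0 were 2-fold or more lower, a size reached by 1.67%. By the Z-score, 1 of the 17 member probes passed the upper limit (3.03% of all probes) and 1 the lower limit (3.3%), and both were near background on both arrays, namely L1CAM and NECTIN4. Of the 12 measured probes, 4 differed by more than 2 scanner errors: both probes of CADM2, 1 of NECTIN2 and 1 of NCAM1. Those errors ran from 0.20 to 0.26, so the rule is close to a fixed cut in size. By 2 times the spot noise of replicated probes, 7 of the 12 differed. The share of all measured probes past either limit was not computed, so neither count is a result about the members.

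**Figure D3:**
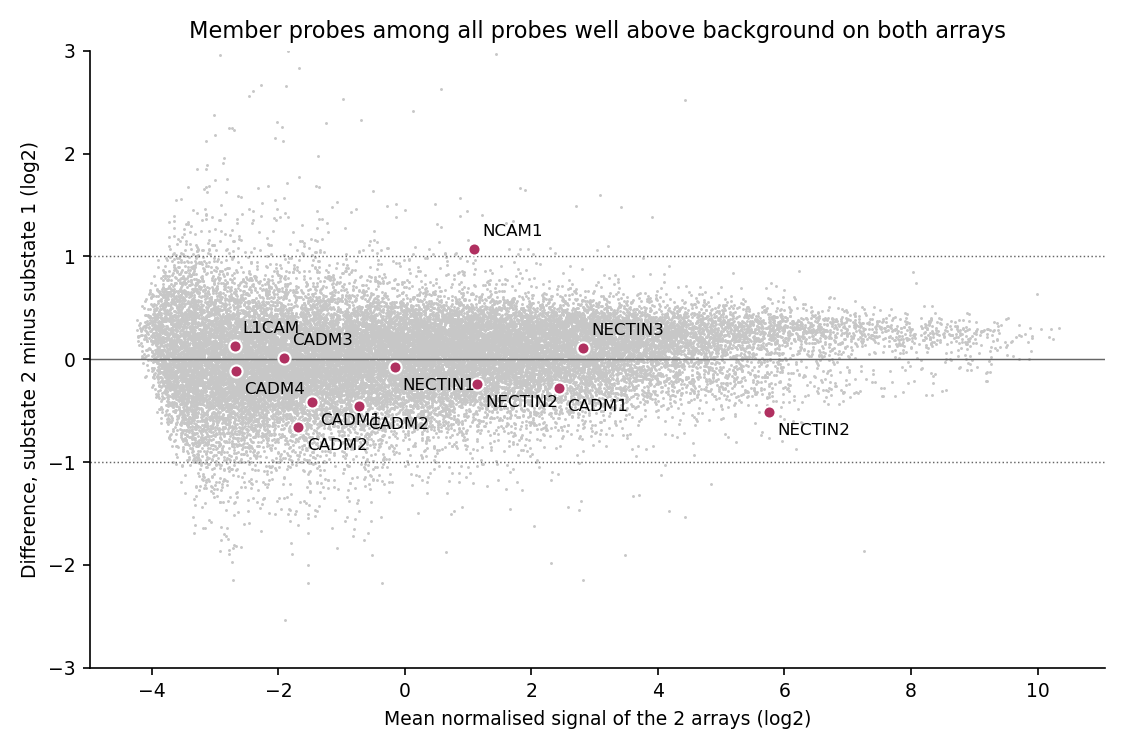
Difference between the arrays (y axis, log2, substate 2 minus substate 1) against the mean normalised signal (x axis, log2) for all 29883 probes measured on both arrays (grey) and the 12 member probes among them (red, labelled by gene). Dotted lines mark 2-fold, and 5 probes with differences beyond 3 are outside the plot; the NCAM1 probe lies at 1.08, and the NECTIN2 probe furthest to the right lies at -0.51.

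The genes that work with the members were described from 8 lists. In each, gene differences are means over the probes measured on both arrays, and a difference of 2-fold or more was found upwards in 0.931% and downwards in 1.07% of all measured genes. Of all measured genes 40.2% lay below 0, and their median was 0.08. Among the nectin partners and the afadin complex, 19 genes were measured, 11 above 0 and 8 below, with 0 genes past 2-fold and a median of 0.02 that became -0.0024 with loess normalisation. Against the median of all measured genes, 8 lay above and 11 below. AFDN, the afadin that ties nectins to actin, differed by -0.13 over 5 probes. The largest differences upwards were those of PVRIG, a lymphocyte receptor of NECTIN2, at 0.65 and the cadherin linker CTNNB1 at 0.44, and downwards those of the scaffold IQGAP1 at -0.58 and LMO7, an afadin-binding protein, at -0.53. The PVRIG value rests on 1 dim probe, with a scanner error of 0.32. LMO7 was inconsistent between probes: its measured probes differed by -0.06 and -1.0. A further LMO7 probe, well above background in substate 1 alone, differed by -1.20 ± 0.46, which equals a 2.30-fold lower signal.

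Among the CADM partners and cytoplasmic adaptors, 16 genes were measured, 10 above 0 and 6 below, with a median of 0.11. The guanylate kinases MPP2 at 0.52 and PALS2 at 0.42 had the largest differences upwards, while EPB41, the red cell protein 4.1, at -0.32 and MPP7 at -0.30 had the largest downwards. CASK, the CADM1 scaffold at synapses, differed by 0.05. Set against the median of all measured genes, 8 of the adaptors lay above it and 8 below. CRTAM, the lymphocyte receptor for CADM1, was not well above background.

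Among the L1 family and its ankyrin and spectrin linkers, 17 genes were measured, 8 above 0 and 9 below, with a median of -0.03 that lay above 0 with median centring, with normexp correction and over all probes. Relative to the median of all measured genes, 6 lay above and 11 below. ANK1, an ankyrin, had the lowest value at -0.71 and the integrin ITGAV followed at -0.37. The membrane linkers MSN at 0.52 and RDX at 0.41 had the highest values. CHL1, the close homologue of L1CAM, was not well above background on either array.

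The list of the NCAM family, of the enzymes that build polysialic acid and of the signalling partners of NCAM1 had 11 measured genes, 8 above 0 and 3 below, with a median of 0.15. Measured against the median of all measured genes, 6 lay above and 5 below, so the list showed little lean either way. GFRA1, which with NCAM1 forms a receptor for GDNF, had the largest difference at 0.59 and was followed by the polysialyltransferase ST8SIA3 at 0.57. Both polysialyltransferases that act chiefly on NCAM1 were well above background on 1 array only. By bounds that leave out scanner error, ST8SIA4 was at least 1.53-fold and ST8SIA2 at least 1.38-fold higher in substate 2. Their plain differences were 1.88 ± 0.80 and 1.13 ± 0.58, and that of ST8SIA2 did not exceed 2 scanner errors. FGFR2 at -0.27 and FGFR1 at -0.13, receptors through which NCAM1 signals, had the lowest values. NCAM2, the paralogue of NCAM1, differed by 0.21, and GDNF itself was not well above background. None of these measured genes reached the 2-fold size that the NCAM1 probe reached.

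Of the contactins and their partners, 7 were measured, 4 above 0 and 3 below, with a median of 0.11 that turned to -0.07 with normexp correction and over all probes. The counts above and below the median of all measured genes were also 4 and 3. CNTNAP3 had the largest difference at 0.94, between 0.85 and 1.02 in its 3 probes. CNTNAP3 has near-identical copies in the genome, so its probes may read more than 1 gene. CNTN2, at 0.16, had the next largest difference upwards, and the receptor phosphatases PTPRG at -0.13 and PTPRZ1 at -0.11 had the largest downwards among genes measured on both arrays. CNTN1, a neuronal contactin, was well above background in substate 1 alone by both of its probes. By a bound that leaves out scanner error, it was at least 1.46-fold lower in substate 2 by one of them. The plain differences of its probes were -2.46 ± 1.48 and -1.83 ± 1.14. CNTNAP5 was at least 1.20-fold lower by its bound, with a plain difference of -0.71 ± 0.55. None of these differences exceeded 2 scanner errors. The IgLON proteins, which are lipid-anchored adhesion molecules of neurons, had 5 measured genes, 4 above 0 and 1 below, with a median of 0.16. These counts were the same against the median of all measured genes. They ranged from -0.29 for OPCML to 0.34 for IGLON5, with LSAMP at 0.30.

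The list of other immunoglobulin superfamily adhesion molecules had the lowest median, -0.27 over 28 measured genes, with 19 below 0 and 9 above. Below the median of all measured genes lay 23, and 5 lay above it. It held 3 genes past 2-fold, all lower in substate 2: ICAM5, a dendritic adhesion molecule, at -1.24, the epithelial myelin-zero-like protein MPZL3 at -1.17 and VSIG1, a junction protein of gastric epithelium, at -1.0. Upwards, SDK2, a synaptic adhesion molecule, had 0.85 and the junction protein JAM3 had 0.39. DSCAM, a neural adhesion molecule, was well above background in substate 2 alone, by 1 of its probes. That probe differed by 1.41 ± 0.44, which equals a 2.66-fold higher signal. ESAM, an endothelial adhesion molecule, was well above background in substate 1 alone. By its bound, which leaves out scanner error, it was at least 1.17-fold lower. Its plain difference was -0.56 ± 0.55 and did not exceed 2 scanner errors. The sheddases and secretases that can cut CADM1, nectins, NCAM1 or L1CAM had 16 measured genes, 6 above 0 and 10 below, with a median of -0.04. Relative to the median of all measured genes, 5 of them lay above and 11 below. ADAM10, a sheddase of L1CAM, differed by -0.22. The extremes were BACE1 at 0.36 and ADAM12 at 0.30, and ADAM8 at -0.46 and BACE2 at -0.23. ADAM9, well above background in substate 1 alone, was at least 1.26-fold lower by its bound. Its plain difference was -1.96 ± 1.17 and did not exceed 2 scanner errors. ADAM12 was inconsistent, since its measured probes differed by -0.40 and 1.00 and a further probe was at least 2.05-fold higher.

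**Figure D4:**
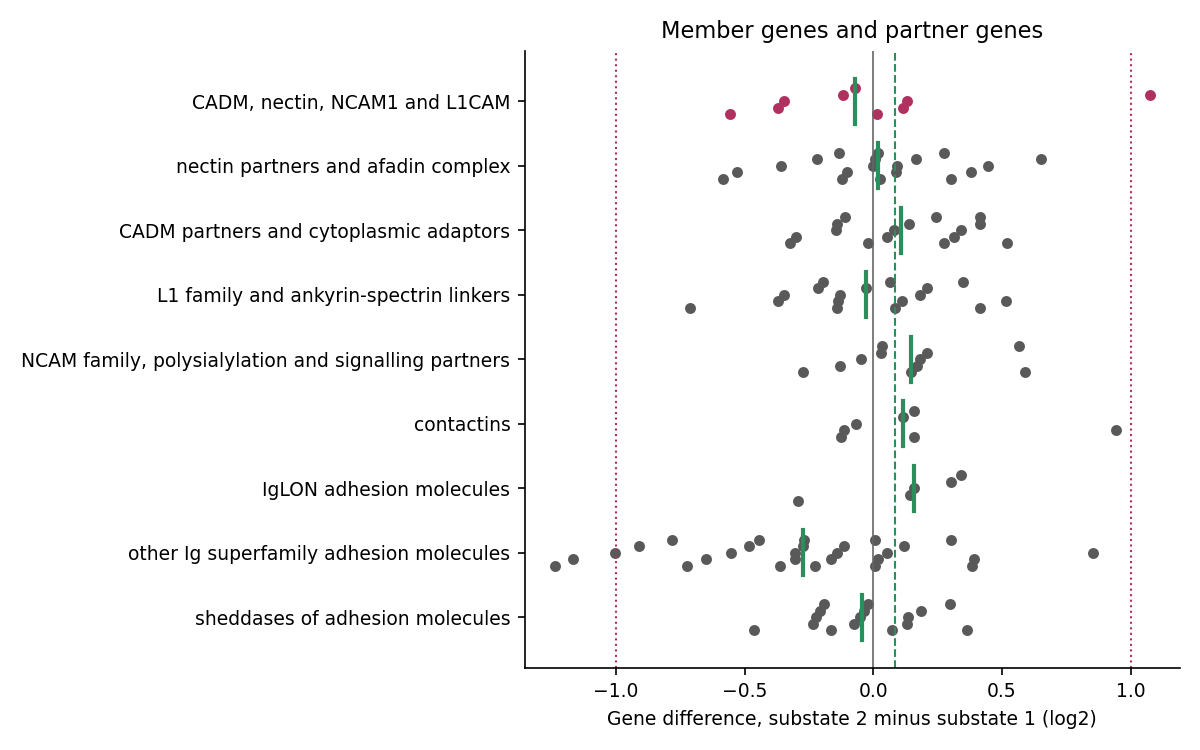
Gene differences (x axis, log2, substate 2 minus substate 1) of the 9 measured members (red, top row) and of the measured genes in 8 partner lists (grey), with the median of each row as a green bar. The dashed line is the median of all measured genes at 0.08 and the dotted lines mark 2-fold; NCAM1 is the member at 1.08, and the row of other immunoglobulin superfamily molecules lies furthest to the left.

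Markers of cell types were read beside these values. Of the 14 pluripotency markers, 12 were named and all 12 were measured on both arrays, with a median difference of 0.18 and a summed normalised signal of 1597 in substate 1 and 1791 in substate 2, relative to the 75th percentile of each array. Of 13 neuron markers, 11 were measured with a median of 0.29 and a sum of 55.6 in substate 1 and 68.9 in substate 2, and the defining RNA-binding proteins ELAVL3 and ELAVL4 were not well above background. Of the measured neuron markers, 9 lay above 0 and 2 below. STMN2 was 2.74-fold and MAP2 2.04-fold higher in substate 2, while SYT1 differed by -0.74 and NEFL by -0.05. Of 10 neural progenitor markers, 4 were measured, all above 0 with a median of 0.91, and the sum was 50.7 in substate 1 and 61.3 in substate 2, while PAX6 and FEZF2 were not well above background. Of all measured genes 40.2% were below 0, and against their median 3 of the measured progenitor markers lay above and 1 below. Among these progenitor markers, LHX2 was 5.01-fold and FABP7 2.72-fold higher in substate 2. POU3F2 and SOX1 were well above background in substate 2 alone. POU3F2 was 13.3-fold higher by its plain difference of 3.73 ± 0.37, and SOX1 was at least 1.71-fold higher. The progenitor sum weighs the brightest of its markers most, which were SOX3, differing by 0.03, and NES, differing by 0.38. The NCAM1 signal and these neural sums were higher on the substate 2 array. Among the other marker sums, those of pluripotency, neural crest and mesendoderm were higher there too. The trophoblast and amnion sums were nearly equal, and the fibroblast sum was lower. The part of any of these cell types in the NCAM1 difference was not tested.

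The other marker lists were read in the same way. All 6 measured neural crest markers of 9 were above 0, where 40.2% of all measured genes were below 0. Against the median of all measured genes, 4 lay above and 2 below. The list had a median of 0.39 and sums of 6.57 and 7.37 in substates 1 and 2, whereas TFAP2A, TFAP2B and PAX3 were not well above background. Of 10 mesendoderm markers 7 were not well above background, TBXT, MIXL1 and SOX17 included, and the sums were 0.446 and 0.617. FOXA2, the 1 measured on both arrays, differed by 0.77 ± 0.25. MESP1, well above background in substate 2 alone, differed by 1.14 ± 0.42. GATA4 was well above background in substate 1 alone, by 1 of its probes, with a plain difference of -0.85 ± 0.61. Fibroblast markers had a median of -0.01 over 6 measured genes of 10, with sums of 244 and 232, and DCN and LUM were not well above background. The 4 measured of 9 trophoblast and amnion markers had a median of -0.95 and sums of 11.4 and 11.6, with GATA3 and CDX2 not well above background. Its genes differed in direction: TFAP2C was 3.62-fold and GABRP 2.89-fold lower in substate 2, and KRT7 differed by 0.16. CGA, well above background in substate 2 alone, was at least 2.12-fold higher by its bound. Its plain difference was 2.95 ± 1.48 and did not exceed 2 scanner errors.

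The direction of the larger member differences did not depend on the scaling. Over all settings that kept single probes, CADM2 ranged from -0.66 to -0.45 and from -0.46 to -0.39 in its probes, and the NECTIN2 probe to NM_001042724 from -0.68 to -0.47. Each of these stayed below 0 in every setting tried. The CADM1 probes ranged from -0.41 to -0.27 and from -0.37 to -0.24, the other NECTIN2 probe from -0.29 to -0.19, and NCAM1 from 0.95 to 1.12. CADM4 alone among the measured probes changed sign, between -0.12 and 0.07.

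**Figure D5:**
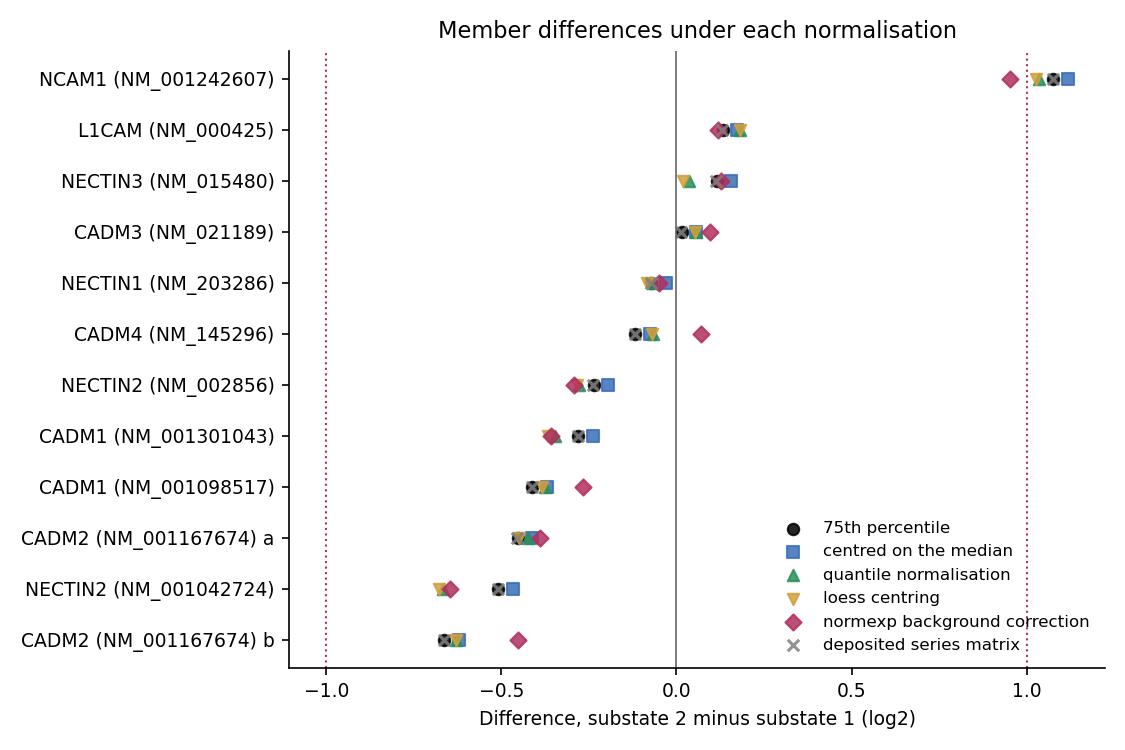
Difference between the arrays (x axis, log2, substate 2 minus substate 1) of the 12 measured member probes under each normalisation, with a symbol for each setting and dotted lines at 2-fold. The NCAM1 symbols lie between 0.95 and 1.12, the CADM1, CADM2 and NECTIN2 symbols are all below 0, and the CADM4 symbols lie on both sides of 0.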

How the data were processed

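Total RNA of each substate was labelled with Cy3 and hybridised to 1 array. The authors deposited the scanner output, in which, per the file headers, Feature Extraction 11.5.1.1 (protocol GE1_1105_Oct12) gave each spot a processed intensity after background subtraction, an error and flags. A table of log2 values was deposited as well. Its intensities were floored at 1 and divided by the 75th percentile of the array, per the study's methods. On each array, 100% of the 58201 probes in that table lay within 0.01 of the values computed here once 1 constant was added.

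Here the intensity was floored at 1, outlier spots were left out, log2 values were averaged over the spots of a probe, and the 75th percentile of the non-control probes was subtracted. Gene values were means over probes well above background on both arrays. A probe well above background on 1 array was given a bound against the higher of its own value on the other array and the lowest signal well above background there. Where its own value was the higher, the bound is the plain difference and no minimum, and the text gives it with its error. Every bound leaves out the scanner error. The error of a difference combines the scanner software's errors of both signals. Probes printed 10 times gave an SD of 0.07 (log2) for the difference of single spots. The number of arrays limits the precision. Accessions were matched to RefSeq genes (GRCh38.p14 table); the array annotation is hg19, and no array coordinates are given. The 2-fold rule was run on simulated data with planted changes above its limit and noise below the scanner error. That run checks the code and not the precision of the real differences. Dim probes and the Z-score rule were not simulated.

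The 10 members and the partner and marker lists were chosen with earlier results of these data known. All 10 members are named. From each partner list, genes past 2-fold by value or bound and the 2 largest differences each way are named, and others were chosen for their role after their values were seen. Alternatives were median centring, quantile and loess normalisation, normexp correction (limma 3.58.1, R 4.3.3, offset 50, on the median signal and median background), outlier spots kept, no floor, the series matrix, and other filters and summaries.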

Additional observations from a re-analysis of the deposited data

How the results depend on the processing

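Recomputed under an alternative, 80 of the 97 values for counts and medians stayed within the spot error or within 1.5 times the count. Of the rest, 15 moved further and 2 turned from a value larger than the spot error to the opposite sign. For the 165 values of single probes and genes the numbers were 141, 21 and 3. Many of the 141 could not have moved, so the tally does not measure stability. No member spot was an outlier or under the floor, and the series matrix held the same values up to a constant. Median centring moved every difference by 1 constant smaller than the spot error. The median over the few probes of a gene equalled their mean. Counting values within the spot error too, 6 medians changed sign, among them the L1 family median, 0.0134 with median centring and 0.0310 with normexp, and the nectin partner median, -0.0024 with loess. With normexp background correction the number of member probes 2-fold higher was 0 and the number past the lower Z-score limit was 3, the contactin median became -0.0700, the NCAM family median 0.0490, and CADM4 0.0714. Over all member probes, dim ones included, 3 were 2-fold higher and 1 was 2-fold lower. With an SD from the median absolute deviation, 3 member probes passed the upper Z-score limit and 2 the lower, and with the Z-score over probes measured on both arrays 0 passed the lower. The member median was -0.0723 by genes. With all probes of the genes, the L1 family median was 0.0647, the contactin median -0.0670, NECTIN3 -0.18, L1CAM 0.79 and NCAM1 0.85. The NCAM family median was 0.0422 with quantile and 0.0516 with loess normalisation, the sheddase median -0.14 and -0.15, and the median of other immunoglobulin superfamily molecules -0.34 with loess. The cause was not tested. Naming probes by a gene column was not run, since the columns used hold none. No paired analysis was possible because 1 array stood for each substate. Signals near background limit NECTIN4, the second L1CAM probe and 2 NCAM1 probes.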

Other observations

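Noncoding transcripts named for members were also on the array, with 17 probes, of which 12 were near background on both arrays. The antisense transcript NECTIN3-AS1 read 92.3 ± 9.87 in substate 1 and 126 ± 13.1 in substate 2 by 1 probe, a difference of 0.64 ± 0.22, and its other probe differed by 0.18 ± 0.30. CADM3-AS1 read 38.2 ± 5.17 in substate 1 and 21.4 ± 4.15 in substate 2, a difference of -0.65 ± 0.34. NECTIN1-DT, the divergent transcript of NECTIN1, differed by 0.47 ± 0.31, and the measured probe of NCAM1-AS1 by -0.07 ± 0.21, beside 1.08 for the NCAM1 probe itself. The 9 probes of long noncoding transcripts named for a CADM gene or for PVRL1, the older symbol of NECTIN1, were near background on both arrays.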
